A study of Mus musculus with 6 samples.

Results

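The 10 genes described here, *Hspa5*, *Hsp90b1*, *Pdia4*, *Sdf2l1*, *Dnajb9*, *Herpud1*, *Xbp1*, *Atf4*, *Ddit3* and *Trib3*, are components and targets of the unfolded protein response (UPR). They were taken as a named list of UPR genes from a table of 24421 genes. Their RNA was measured in liver endothelial cells (ECs) of wild-type C57BL/6J mice, which the methods describe as female. ECs were sorted by FACS as CD31+CD45- cells after enzymatic digestion of the liver. Young mice were 10 weeks old (n = 3), and the 3 aged mice are named here by the age in their labels, 127, 131 and 136 weeks. No treatment or transgene was involved, so age is the only labelled difference between the groups. All 10 genes had enough counts to be tested, among 14612 tested genes.

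The endoplasmic reticulum (ER) folds secreted and membrane proteins, and the UPR is the answer of the cell to unfolded proteins that collect there. Its sensors are IRE1 (*Ern1*), ATF6 (*Atf6*) and PERK (*Eif2ak3*). IRE1 splices *Xbp1* mRNA and ATF6 is cut to a free transcription factor, and both raise chaperones and degradation factors, while PERK phosphorylates eIF2alpha, which favours translation of *Atf4*. Sinusoidal ECs of the liver make large amounts of scavenger receptors and clotting factors, which pass through the ER.

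In aged ECs *Atf4* was higher in every sample than in any young sample, *Xbp1* and *Sdf2l1* were lower in every sample, and the ages overlapped for the other 7 genes. None of the 10 passed the threshold of an adjusted p below 0.05 with a log2 fold change beyond 1 (edgeR's quasi-likelihood test over 14612 genes). That threshold was passed by 0.0% of all tested genes in either direction, and the smallest adjusted p of any gene was 0.0735. An unadjusted p below 0.05 was reached by 1 of the 10 with a positive sign (*Atf4*) and by 2 with a negative one (*Sdf2l1* and *Xbp1*), against 8.32% and 4.32% of all genes (1216 and 631). DESeq2's Wald test called 395 genes higher and 77 lower, and limma-voom 13 and 2, with 0 of the 10 among either. Non-overlapping ages were found for 9.62% of all genes with aged samples above and for 8.33% with aged samples below, so 1 and 2 of 10 lie near these shares. Of the 10 genes, 5 had a positive and 5 a negative log2 fold change, against 51.1% and 48.9% of all genes. Their median was -0.095, that of all tested genes 0.0098. In what follows, log2 fold changes are aged over young, ± gives edgeR's standard error for a log2 value and the SD over 3 samples for a level, and adjusted p-values are edgeR's with Benjamini-Hochberg adjustment.

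Total counts lay between 23001556 and 31651817 per sample, and 3 counts corresponded to at most 0.135 CPM (counts scaled to library size by TMM), far below each of the 10 genes. *Lars2* and *Rn45s* counts, from symbols that collect ribosomal RNA reads, came to 1.29% of the total for young replicate 3 and to 0.960% for the 127-week mouse, against 4.68% to 5.53% in the other 4 samples. For the 10 genes, the log2 difference among those 4 high-*Rn45s* libraries and that between the low-*Rn45s* pair are given beside the value over all samples. All 18 endothelial markers were detected, with a summed level between 32799 and 35078 CPM in young and between 16975 and 25660 CPM in aged ECs. Of the 18, 10 were lower in every aged sample (55.6% against 8.33% of all genes). Hepatocyte markers summed to between 172 and 242 CPM in young and between 107 and 129 CPM in aged ECs. Pan-leukocyte markers without *Arhgdib*, which ECs also express, summed to between 108 and 114 CPM in the young samples and to 137, 107 and 420 CPM in the 127-, 131- and 136-week samples. *Arhgdib* itself was lower in the aged samples, at 188 to 251 CPM against 321 to 346 CPM in the young. Most of the young sums and of the 131-week sum came from *Lcp1*. *Lcp1* was at 79.3 to 86.9 CPM in the young samples and at 59.6, 83.7 and 156 CPM at 127, 131 and 136 weeks. Markers of T and NK cells reached 85.5 CPM in sum and those of Kupffer and other myeloid cells 512 CPM, both in the 136-week sample. The myeloid sum was 205 CPM at 127 weeks and 33.6 CPM at 131 weeks. Cholangiocyte markers summed to between 89.5 and 109 CPM in young samples and to 193, 194 and 240 CPM at 127, 131 and 136 weeks. Most of each sum came from *Spp1* (77.4 to 96.2 CPM in young and 161 to 206 CPM in aged samples). All 6 cholangiocyte markers had a positive log2 fold change. Stellate and mural markers summed to between 133 and 432 CPM in young samples and to 453, 227 and 711 CPM in the aged. The largest part of each stellate and mural sum came from *Reln*. *Reln* was at 69.9 to 181 CPM in the young samples and at 351, 109 and 496 CPM at 127, 131 and 136 weeks. Of the 10 stellate and mural markers, 6 had a positive and 4 a negative log2 fold change. *Lrat* lay between 4.51 and 23.6 CPM in young and between 1.67 and 4.18 CPM in aged samples. The part of these shifts in the results below was not tested, and fewer cells of a type cannot be told apart from less RNA per cell in sorted bulk samples.

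**Figure D1:**
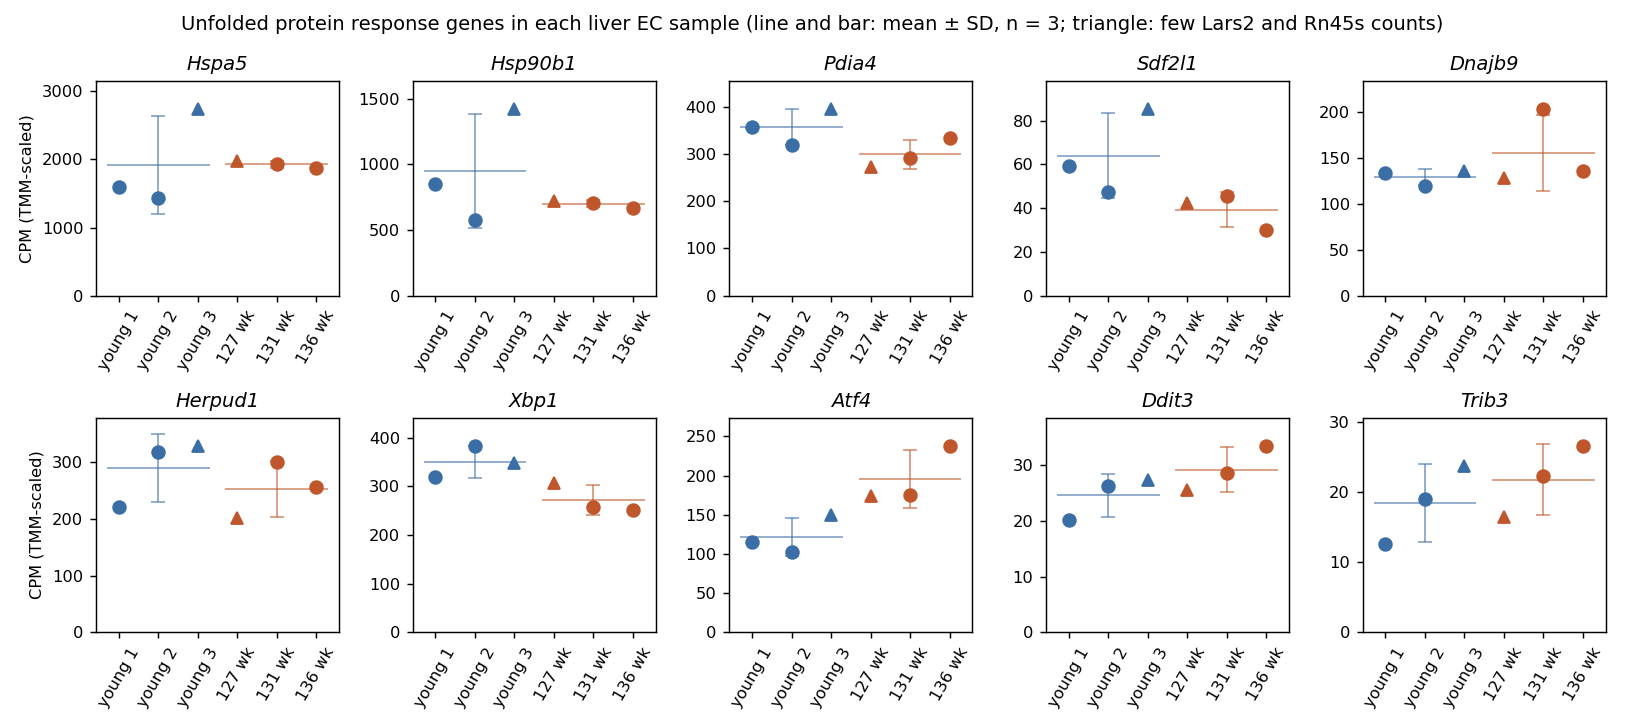
CPM of each of the 10 genes in the 3 young samples (blue) and the 127-, 131- and 136-week samples (orange), with the mean and SD of each age (n = 3), on a linear axis from 0. Triangles mark the samples with few *Lars2* and *Rn45s* counts. Young replicate 3 is the highest of the 6 samples for 5 genes and the 136-week sample for 3. Over all 14612 tested genes they are highest for 3244 and 3759.

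*Hspa5* encodes BiP, the main HSP70 chaperone of the ER lumen, which also holds the UPR sensors inactive. It lies on chromosome 2, from 34627490 to 34632051 of mm9, on the plus strand. *Hspa5* stood at 1593, 1427 and 2742 CPM in young replicates 1, 2 and 3, and at 1980, 1935 and 1869 CPM at 127, 131 and 136 weeks. The aged samples lay close together, above young replicates 1 and 2 and below young replicate 3. With a log2 fold change of 0.0055 ± 0.27 (adjusted p = 0.997), the means of the ages did not differ beyond the spread of the young samples, whose highest was 1.92-fold the lowest, against 1.06-fold in the aged. Without young replicate 3, every aged sample lay above both young samples, with a log2 fold change of 0.35. Without young replicate 2 it was -0.17. Among the high-*Rn45s* libraries the log2 difference was 0.33, and between the low-*Rn45s* pair it was -0.47.

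*Hsp90b1* (chromosome 10, 86152954 to 86168254, minus strand) encodes GRP94, the HSP90 of the ER. For *Hsp90b1*, young replicates 1, 2 and 3 gave 853, 572 and 1422 CPM, and the mice of 127, 131 and 136 weeks gave 722, 705 and 669 CPM. The young samples surrounded the aged ones, and young replicate 3 stood 2.49-fold above young replicate 2. Over all samples its log2 fold change was -0.44 ± 0.32 (adjusted p = 0.624), and -0.028 without young replicate 3. It was -0.025 among the high-*Rn45s* libraries and -0.98 between the low-*Rn45s* pair. Other annotated genes share 15.7% of the exonic bases of *Hsp90b1*, so its counts are less certain.

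The promoters of *Hspa5* and *Hsp90b1* are shown because they carry the ER stress response element (ERSE), the motif through which ATF6 and XBP1 raise chaperone genes, and that of *Herpud1* because it carries the related ERSE-II. The sequences are those of RefSeq, from 250 bases before to 50 bases after the gene start, read 5′ to 3′ on the gene's strand and placed on mm9 by an exact match. Capitals mark the ERSE (CCAAT and CCACG with 9 bases between them) or the ERSE-II (ATTGG and CCACG with 1 base between them), both searched on either strand.
*Hspa5*, chr2:34627360-34627659, plus strand: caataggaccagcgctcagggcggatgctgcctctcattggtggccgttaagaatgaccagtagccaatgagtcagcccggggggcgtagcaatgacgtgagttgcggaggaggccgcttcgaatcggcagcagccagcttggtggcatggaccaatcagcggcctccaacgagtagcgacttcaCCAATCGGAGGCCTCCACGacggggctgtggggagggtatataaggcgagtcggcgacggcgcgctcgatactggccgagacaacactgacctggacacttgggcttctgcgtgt
*Hsp90b1*, chr10:86168140-86168439, minus strand: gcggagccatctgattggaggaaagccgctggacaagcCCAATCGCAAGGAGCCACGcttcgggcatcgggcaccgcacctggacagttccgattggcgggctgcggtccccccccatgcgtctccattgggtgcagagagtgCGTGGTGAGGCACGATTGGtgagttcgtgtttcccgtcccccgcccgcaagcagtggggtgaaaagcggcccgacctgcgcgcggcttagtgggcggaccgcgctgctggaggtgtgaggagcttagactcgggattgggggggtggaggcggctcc
*Herpud1*, chr8:96910079-96910378, plus strand: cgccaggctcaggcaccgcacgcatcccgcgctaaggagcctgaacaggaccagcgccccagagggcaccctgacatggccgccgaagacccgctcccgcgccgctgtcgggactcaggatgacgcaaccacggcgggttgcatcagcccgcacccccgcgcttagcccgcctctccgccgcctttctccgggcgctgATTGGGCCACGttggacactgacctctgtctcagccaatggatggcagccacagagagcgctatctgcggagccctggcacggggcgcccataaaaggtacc
The ERSE begins at position -65 from the start in *Hspa5* and at -212 and -107 in *Hsp90b1*, and the ERSE-II begins at -52 in *Herpud1*. The other 7 genes hold neither motif in this window. Of 32851 promoters of the same length, 0.119% hold an ERSE and 0.0365% an ERSE-II, whereas the CCACG that ends both motifs, and so lies within every match to them, is in 32.8% (7 of the 10 genes). The UPR element TGACGTGG and the ATF4 element, searched only in the form TGATGNAAT, were in 0.676% and 0.965% of promoters and in 0 of the 10. Forms of the ATF4 element with another last base were not counted. The *Herpud1* sequence above holds a stretch that, on the opposite strand, matches the searched form at every base but the last. The 0 of the 10 therefore holds for the searched form only. Among the 17 tested genes with an ERSE, 7 had a positive and 10 a negative log2 fold change, with a median of -0.15. Every aged sample was above the young samples for 1 and below for 2, near the 9.62% and 8.33% of all genes. Of the 8 tested genes with an ERSE-II, 1 was higher and 7 were lower, with a median of -0.16. The chaperone genes *Calr*, *Canx*, *Creld2* and *Pdia6*, named here after their values were seen because they hold an ERSE, had log2 fold changes of -0.39, -0.29, -0.50 and -0.44, and their ages overlapped. *Dnajc3*, a BiP cochaperone with an ERSE, had -0.26, with its aged samples below the young ones by less than 1 CPM at the nearest. Between the low-*Rn45s* pair the difference in the first 4 ran from -0.89 in *Calr* to -0.71 in *Canx*, and among the high-*Rn45s* libraries it ran from -0.18 in *Creld2* to -0.11 in *Canx*.

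*Pdia4* (chromosome 6, 47746141 to 47763511, minus strand) encodes an ER disulfide isomerase. Levels of *Pdia4* were 358, 320 and 396 CPM in the young mice, replicates 1 to 3, and 274, 291 and 334 CPM at 127, 131 and 136 weeks. Only the 136-week sample reached into the young range. *Pdia4* had a log2 fold change of -0.26 ± 0.16 (adjusted p = 0.562), with -0.12 among the high-*Rn45s* libraries and -0.53 between the low-*Rn45s* pair.

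*Sdf2l1* (chromosome 16, 17130231 to 17132476, minus strand) encodes a small ER protein that works with BiP. *Sdf2l1* stood at 59.3, 47.3 and 85.4 CPM in young replicates 1, 2 and 3, and at 42.2, 45.6 and 30.2 CPM at 127, 131 and 136 weeks. Each aged sample lay below each young sample, though young replicate 2 and the 131-week sample were nearly level. Young ECs averaged 64.0 ± 19.4 CPM and aged ECs 39.3 ± 8.12 CPM (n = 3 each). Its log2 fold change, -0.70 ± 0.26 (unadjusted p = 0.0274 and adjusted p = 0.344, edgeR), was the most negative of the 10. It ran from -0.88 to -0.44 with each mouse left out in turn, smallest in size without young replicate 3, and was -0.50 among the high-*Rn45s* libraries and -0.999 between the low-*Rn45s* pair. With counts scaled by library totals alone the ages overlapped for *Sdf2l1*.

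*Dnajb9* (chromosome 12, 45306884 to 45311055, minus strand) encodes ERdj4, a BiP cochaperone that also restrains IRE1. For *Dnajb9*, young replicates 1, 2 and 3 gave 133, 119 and 135 CPM, and the mice of 127, 131 and 136 weeks gave 128, 203 and 136 CPM. The 131-week sample stood alone, and the other aged samples were level with the young ones. Over all samples its log2 fold change was 0.27 ± 0.20 (adjusted p = 0.646), and 0.029 without the 131-week sample. It was 0.40 among the high-*Rn45s* libraries and -0.083 between the low-*Rn45s* pair. Of the 75-base stretches of the *Dnajb9* transcript, 9.99% also occur on the X chromosome, so a part of its counts depends on how such reads were placed.

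*Herpud1* (chromosome 8, 96910338 to 96919277, plus strand) encodes an ER membrane protein of ER-associated degradation, which returns misfolded proteins to the proteasome. Levels of *Herpud1* were 221, 319 and 329.7 CPM in the young mice, replicates 1 to 3, and 203, 301 and 256 CPM at 127, 131 and 136 weeks. The range was almost as wide within each age, 1.49-fold in young and 1.48-fold in aged ECs, as over all samples. Its log2 fold change was -0.20 ± 0.22 (adjusted p = 0.777), with 0.064 among the high-*Rn45s* libraries and -0.70 between the low-*Rn45s* pair. It was -0.36 and -0.34 without young replicate 1 or the 131-week sample, and -0.12, -0.092 and -0.055 without young replicate 2, young replicate 3 or the 127-week sample.

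*Xbp1* (chromosome 11, 5420662 to 5425896, plus strand) encodes the transcription factor that IRE1 activates. *Xbp1* stood at 318, 383 and 348 CPM in young replicates 1, 2 and 3, and at 307, 256 and 250.4 CPM at 127, 131 and 136 weeks. Each aged sample lay below each young sample, with the 127-week sample close to young replicate 1. Young ECs averaged 349.8 ± 32.6 CPM and aged ECs 271 ± 31.3 CPM (n = 3 each). In edgeR this was -0.37 ± 0.16 on the log2 scale (unadjusted p = 0.0497 and adjusted p = 0.394). Among the high-*Rn45s* libraries the difference was -0.46 and between the low-*Rn45s* pair -0.18. It was negative in every alternative run, and under scaling by library totals alone the ages overlapped. *Xbp1* is also high in plasma cells. The 11 B and plasma cell markers in the counts summed to between 211 and 270 CPM in the young samples. They summed to 230, 228 and 306 CPM at 127, 131 and 136 weeks. Most of each sum came from *Sdc1* (44.0 to 169 CPM over the samples) and *Txndc5* (101 to 165 CPM). *Txndc5* is also in the list of ER chaperones. Of the 10 markers tested, 9 had a positive log2 fold change, and the 136-week sample was highest for 8. *Jchain* was at 2.79, 0.181 and 0.158 CPM in young replicates 1 to 3. At 127, 131 and 136 weeks it was at 1.72, 0.311 and 11.9 CPM. The part of such cells in the *Xbp1* values was not tested.

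The stretch that IRE1 removes from *Xbp1* mRNA is shown because the counts cannot see it. In the coding sequence of the longest annotated transcript, a pair of IRE1 sites (CNGCNG) was found 26 bases apart whose excision opens a longer reading frame. Capitals mark the 26 bases removed, positions 479 to 504 counted from the A of the start codon.
*Xbp1*, coding strand of the annotated mm9 transcript: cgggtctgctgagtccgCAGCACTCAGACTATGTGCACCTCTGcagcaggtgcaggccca
The unspliced frame encodes 267 residues and the spliced frame 371. Counts per gene add both forms, so the lower *Xbp1* counts of aged ECs say nothing of the spliced share. A read of 75 bases could hold the junction, but reads were not analysed here.

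*Atf4* (chromosome 15, 80085614 to 80087970, plus strand) encodes the transcription factor at the centre of the integrated stress response, in which PERK and other kinases phosphorylate eIF2alpha. For *Atf4*, young replicates 1, 2 and 3 gave 115, 102 and 149 CPM, and the mice of 127, 131 and 136 weeks gave 174, 175 and 238 CPM. Every aged sample lay above every young sample, and the 136-week sample was the highest. Young ECs averaged 122 ± 24.3 CPM and aged ECs 196 ± 36.8 CPM (n = 3 each), a ratio of 1.60 in the fit. At 0.68 ± 0.20 (unadjusted p = 0.0117 and adjusted p = 0.282, edgeR), its log2 fold change was the most positive of the 10. Over the alternatives with a test the adjusted p ran from 0.0760 with DESeq2's Wald test to 0.658 without young replicate 2. Leaving out any 1 mouse gave a log2 fold change between 0.52 and 0.85, and the difference was 0.91 among the high-*Rn45s* libraries and 0.22 between the low-*Rn45s* pair. ATF4 protein is set mainly by translation. In the longest annotated *Atf4* transcript 3 upstream ATGs precede the start codon, of which 1 opens a reading frame of 59 residues that overlaps the start of the coding sequence out of frame. An RNA level is therefore not a measure of ATF4 protein.

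*Ddit3* (chromosome 10, 126727830 to 126733344, plus strand) encodes CHOP, a factor that PERK and ATF4 raise and that promotes cell death in long stress. Levels of *Ddit3* were 20.2, 26.2 and 27.4 CPM in the young mice, replicates 1 to 3, and 25.5, 28.6 and 33.5 CPM at 127, 131 and 136 weeks. The 127-week sample fell within the young range and the other aged samples lay above it. Its log2 fold change was 0.25 ± 0.19 (adjusted p = 0.652), with 0.41 among the high-*Rn45s* libraries and -0.10 between the low-*Rn45s* pair. It was 0.12 without young replicate 1 and 0.14 without the 136-week sample. With library totals alone as the scaling, every aged sample lay above every young one. The exons of *Ddit3* share 81 bases with *Mars* and another gene on the opposite strand, and the use of strand in counting is not given in the sources used here. *Mars*, named for this overlap, had a log2 fold change of 0.15 ± 0.16 (adjusted p = 0.752).

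*Trib3* (chromosome 2, 152163158 to 152169768, minus strand) encodes a pseudokinase that ATF4 and CHOP raise. *Trib3* stood at 12.6, 19.0 and 23.7 CPM in young replicates 1, 2 and 3, and at 16.4, 22.3 and 26.6 CPM at 127, 131 and 136 weeks. The ages overlapped over most of their range. *Trib3* had a log2 fold change of 0.24 ± 0.28 (adjusted p = 0.791), with 0.62 among the high-*Rn45s* libraries and -0.50 between the low-*Rn45s* pair. Single mice moved it, to 0.031 without young replicate 1, 0.074 without the 136-week sample, 0.41 without the 127-week sample and 0.47 without young replicate 3. *Atf4*, *Ddit3* and *Trib3* were thus all highest in the 136-week sample, while *Hspa5*, *Hsp90b1*, *Pdia4*, *Sdf2l1* and *Herpud1* were all highest in young replicate 3. These samples were also the most often highest over all 14612 tested genes, for 3759 and 3244 of them.

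**Figure D2:**
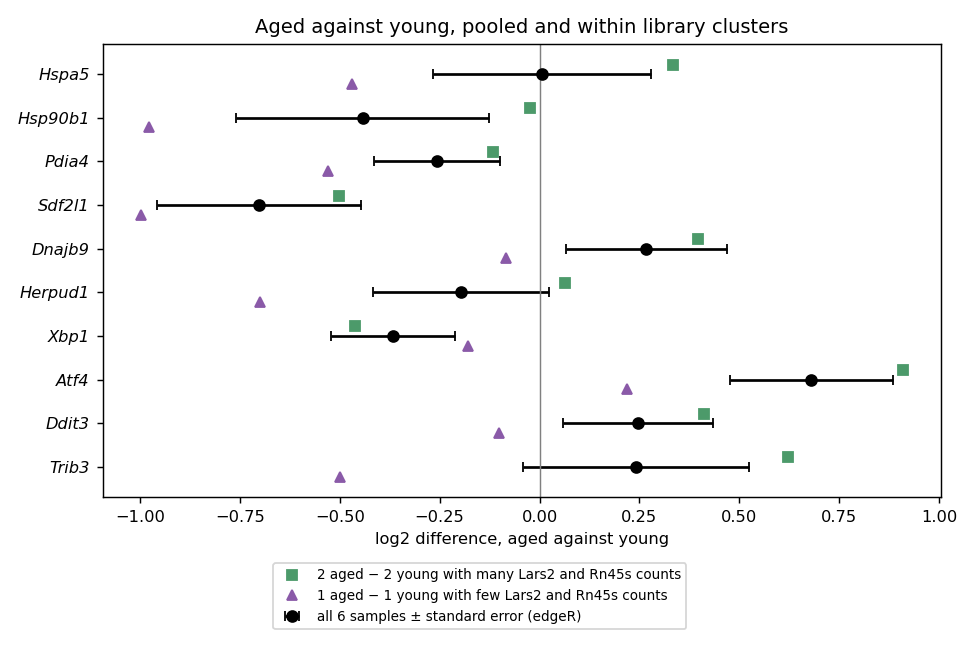
Log2 difference between aged and young ECs for each of the 10 genes. Black points are edgeR's log2 fold change over all 6 samples with its standard error, green squares the difference among the 4 high-*Rn45s* libraries and purple triangles that between the low-*Rn45s* pair, both on log2(CPM + 1). *Hsp90b1*, *Pdia4*, *Sdf2l1* and *Xbp1* lie below 0 and *Atf4* above 0 in all of these, while *Hspa5*, *Dnajb9*, *Herpud1*, *Ddit3* and *Trib3* lie on opposite sides of 0 in the clusters.

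Levels of different genes can be compared only per transcript length, for which the deposited FPKM values were used. *Hspa5* was the highest of the 10, with a median FPKM of 775 over the 6 samples (range 584 to 1149), above 99.6% of tested genes. *Hsp90b1* followed at a median FPKM of 268 (range 214 to 546), and neither gene overlapped the next in order. From *Herpud1* (median FPKM 159) through *Xbp1*, *Pdia4*, *Atf4*, *Dnajb9* and *Sdf2l1* to *Ddit3* (median FPKM 39.2), the range of each gene overlapped that of its neighbour. *Trib3* was lowest and apart, with a median FPKM of 10.7 (range 6.59 to 13.8).

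Ratios of FPKM within a sample do not depend on how libraries were scaled, and 6 were computed, chosen after the values were seen. The ratio of *Hspa5* to *Hsp90b1* lay between 2.04 and 2.72 in the young mice, and was 3.00, 2.99 and 3.04 at 127, 131 and 136 weeks. *Hspa5* stood to *Sdf2l1* at 10.3, 11.5 and 12.2 in young replicates 1, 2 and 3 and at 17.9, 16.2 and 23.7 in the mice of 127, 131 and 136 weeks. *Atf4* stood to *Hspa5* at 0.133, 0.133 and 0.101 in the young and at 0.162, 0.168 and 0.236 in the aged mice in the same order. The ages did not overlap in these 3 ratios and overlapped in the other 3, among them *Atf4* to *Ddit3*. These ratios are a description, with no test.

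**Figure D3:**
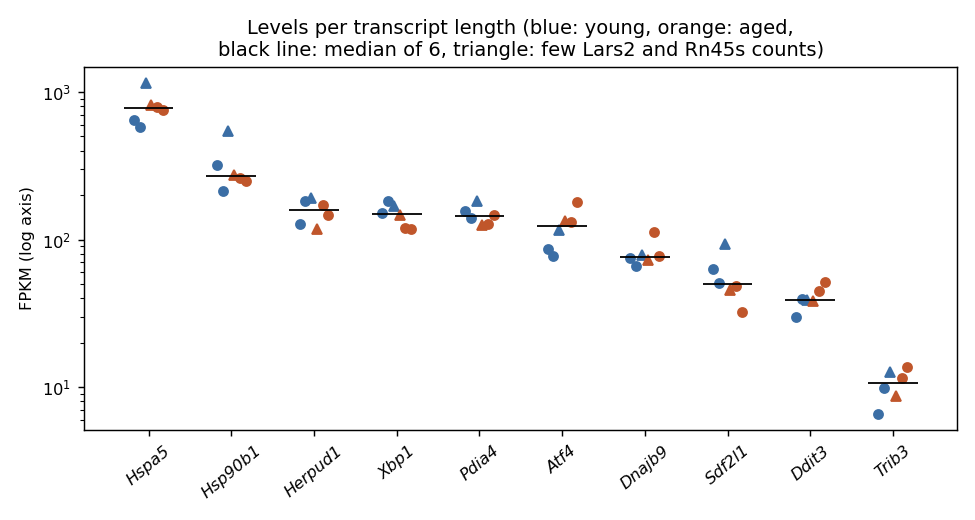
FPKM of each of the 10 genes in each sample on a log axis, ordered by the median of 6 samples (black line), with young samples in blue and aged in orange. *Hspa5* and *Hsp90b1* lie above the others at medians of 775 and 268, and *Trib3* lies below them at 10.7.

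The other genes of the pathway were read from 8 lists by role, with 147 genes tested. Of these, 52 had a positive and 95 a negative log2 fold change, with a median of -0.098. None passed the threshold. An unadjusted edgeR p below 0.05 was reached by 12 with a positive and 7 with a negative sign, next to 8.32% and 4.32% of all genes. Every aged sample was above every young sample for 10 (6.80%, next to 9.62% of all genes) and below for 24 (16.3%, next to 8.33%). With counts scaled by library totals alone, these were 14 and 14 (9.52% each), next to 11.8% and 5.51% of all genes. Fewer samples have to be kept apart with a mouse left out. The number above was then 10 to 20, with 10 without the 136-week sample (6.85% against 12.6% of all genes) and 20 without the 131-week sample (13.6% against 18.5%). The number below was 28 to 46, highest without young replicate 3 (31.3% against 15.9%).

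Of 28 ER chaperones and folding enzymes outside the 10, 0 passed the threshold. An unadjusted edgeR p below 0.05 was found for 3, all negative, next to 4.32% of all genes with that sign. A negative log2 fold change was found for 25 of the 28, with a median of -0.27. The ages did not overlap for 9, all with aged samples below (32.1% against 8.33% of all genes). *Fkbp14*, a collagen-folding isomerase of the ER, stood at 35.8, 47.3 and 61.6 CPM in young replicates 1, 2 and 3 and at 13.6, 25.8 and 24.8 CPM at 127, 131 and 136 weeks (log2 fold change -1.17 ± 0.30, adjusted p = 0.249). *Manf*, a secreted ER stress protein, was at 70.3, 75.7 and 82.9 CPM in the young and at 52.3, 52.4 and 59.9 CPM in the aged mice, in the same order (log2 fold change -0.48 ± 0.14, adjusted p = 0.261). Both had aged values wholly below young ones. The median of the list was -0.19 without young replicate 3 and -0.25 without the 136-week sample, and -0.16 among the high-*Rn45s* libraries and -0.36 between the low-*Rn45s* pair. With library totals alone it was -0.21, with 6 genes below (21.4% against 5.51% of all genes). With a mouse left out the number below ran from 9 to 15. It was 9 without young replicate 1 (32.1% against 11.7% of all genes) and 15 without young replicate 2 (53.6% against 10.9%). It was 14 without the 131-week sample, when 2325 of 14558 genes lay below. Of 18 endothelial markers, 14 had a negative sign as well (median -0.36 on the log2 scale), and their part in these values was not tested.

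The 23 genes of ER translocation and signal peptide removal all had a negative log2 fold change in the fit of all samples, but by little, with a median of -0.11 and a range from -0.28 to -0.035. Negative signs numbered 18 of 23 without the 127-week sample, 20 without young replicate 1, without young replicate 3 or in the high-*Rn45s* libraries alone, 21 without young replicate 2 or with limma-voom, and 22 without the 131-week sample or with library totals alone. The median ran from -0.20 without young replicate 3 to -0.067 without the 127-week sample, and was -0.046 with library totals alone. In 3 of the 23 genes, next to 8.33% of all genes, every aged sample was below every young one. This was so for 15 (65.2% against 15.9% of all genes) without young replicate 3, and for 1 with library totals alone (4.35% against 5.51%). Among the 3 were *Spcs2* and *Sec11c*, subunits of the signal peptidase, with log2 fold changes of -0.26 (adjusted p = 0.469) and -0.23 (adjusted p = 0.582). Of 21 tested genes of ER-associated degradation, 6 were higher and 15 lower, with a median of -0.11. *Sel1l*, the scaffold of the HRD1 ubiquitin ligase, averaged 332 ± 34.4 CPM in the young and 242 ± 20.2 CPM in the aged mice (n = 3 each; log2 fold change -0.46, adjusted p = 0.317), and *Derl1*, a channel component, had a log2 fold change of -0.22 (adjusted p = 0.567).

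Among the sensors, *Eif2ak3*, which encodes PERK, stood at 45.1, 49.2 and 65.9 CPM in young replicates 1, 2 and 3 and at 36.8, 38.8 and 29.3 CPM at 127, 131 and 136 weeks. The ages did not overlap for *Eif2ak3*, at -0.61 ± 0.19 on the log2 scale (adjusted p = 0.304). *Atf6* averaged 70.0 ± 4.44 CPM in the young and 62.7 ± 6.53 CPM in the aged mice (n = 3 each; adjusted p = 0.705). *Ern1*, at 12.1, 14.8 and 12.2 CPM in young replicates 1, 2 and 3, had a log2 fold change of 0.047 ± 0.25 (adjusted p = 0.965), and its aged samples lay on both sides of the young range. The ages overlapped for *Atf6* as well. *Mbtps1*, the protease that cuts ATF6, had a log2 fold change of -0.25 (adjusted p = 0.541), with its highest aged sample at 154 CPM just below its lowest young one at 156 CPM. Of all 12 genes of sensors and proteases, 3 were higher and 9 lower.

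Of 29 tested targets of ATF4 and the integrated stress response, 0 passed the threshold, 22 had a positive log2 fold change, with a median of 0.42, and the ages did not overlap for 5 with aged samples above (17.2% against 9.62% of all genes) and 1 below. *Slc1a5*, a glutamine transporter, stood at 13.7, 9.66 and 11.4 CPM in young replicates 1, 2 and 3 and at 31.5, 31.3 and 60.5 CPM at 127, 131 and 136 weeks (log2 fold change 1.82 ± 0.31, adjusted p = 0.184). *Gdf15*, a secreted stress cytokine, was at 2.23, 1.76 and 1.92 CPM in the young and at 18.9, 10.8 and 74.5 CPM in the aged mice, in the same order (log2 fold change 4.13 ± 0.74, adjusted p = 0.193). *Cebpg*, a partner of ATF4 on DNA, was lower in every aged sample (log2 fold change -0.41, adjusted p = 0.309). For 16 of the 29 genes the 136-week sample was highest, next to 3759 of all 14612 tested genes. Without that sample, 17 were higher and 11 lower, with a median of 0.077. Of those 28 genes, 5 then had aged samples above (17.9% against 12.6% of all genes) and 3 below (10.7% against 11.1%). The number with aged samples above was 6 without young replicate 1 (20.7% against 13.3% of all genes). It was 7 without young replicate 3 (24.1%), when 2469 of 14501 genes lay above. It was 10 without the 127-week sample (34.5% against 15.9% of all genes). It was 8 (27.6%) without young replicate 2, without the 131-week sample or with library totals alone, against 12.3%, 18.5% and 11.8% of all genes. As the median deviation from the young mean on log2(CPM + 1), the list stood at 0.054, 0.089 and 0.90 in the 127-, 131- and 136-week samples.

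Of 17 immediate early genes that respond to tissue dissociation, 0 passed the threshold and 16 had a positive log2 fold change. An unadjusted edgeR p below 0.05 was found for 8, all positive, next to 8.32% of all genes with that sign. The ages did not overlap for 8 with aged samples above (47.1% against 9.62% of all genes) and 1 below, and their summed level was between 24250 and 27815 CPM in young ECs and 28131, 30107 and 39352 CPM in the 127-, 131- and 136-week samples. *Atf3*, which is in both lists and was named for that after its values were seen, stood at 457, 449 and 981 CPM in young replicates 1, 2 and 3 and at 1378, 1089 and 2279 CPM at 127, 131 and 136 weeks. The part of dissociation in these values was not tested.

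The 12 aminoacyl-tRNA synthetase genes of the ATF4 programme had a median log2 fold change of 0.025, with 8 higher and 4 lower and a range from -0.23 to 0.22, and the median was -0.073 without the 136-week sample. *Wars*, the tryptophan enzyme, was lower in every aged sample (log2 fold change -0.20, adjusted p = 0.597). Of 13 genes of eIF2alpha kinases, phosphatase and eIF2B subunits, 4 were higher and 9 lower, with a median of -0.089. This median was -0.025 without young replicate 3, -0.021 with library totals alone and 0.015 in the high-*Rn45s* libraries alone. *Eif2b3* was higher in every aged sample (log2 fold change 0.35, adjusted p = 0.522), while *Eif2ak1*, the kinase HRI, and *Dnajc3*, an inhibitor of PERK, were lower in every aged sample, with log2 fold changes of -0.33 (adjusted p = 0.403) and -0.26 (adjusted p = 0.605). For *Dnajc3* the highest aged and the lowest young sample were level, both at 233 CPM. Of the list's 13 genes, 1 thus lay above (7.69% against 9.62% of all genes) and 2 below (15.4% against 8.33%). With library totals alone 1 lay below (7.69% against 5.51% of all genes).

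Of 12 genes linked to death under ER stress, 8 were higher and 4 lower, and the ages did not overlap for 4 with aged samples above and 2 below (33.3% and 16.7%, against 9.62% and 8.33% of all genes). Without young replicate 3 the number above was 7 of 12, when 2469 of 14501 genes lay above. The list's median was 0.21, and ran from 0.079 without young replicate 1 to 0.44 without young replicate 3. *Casp12*, an ER-bound caspase, stood at 14.4, 16.3 and 13.1 CPM in young replicates 1, 2 and 3 and at 37.1, 26.6 and 41.7 CPM at 127, 131 and 136 weeks (log2 fold change 1.27 ± 0.21, adjusted p = 0.184). *Map3k5*, which encodes the kinase ASK1, was at 3.54, 4.15 and 2.87 CPM in the young and at 9.22, 8.36 and 10.0 CPM in the aged mice, in the same order (log2 fold change 1.39 ± 0.25, adjusted p = 0.193). *Bok*, a BCL2 family member of the ER, was lower in every aged sample, at 134 ± 23.9 CPM in young and 76.4 ± 10.6 CPM in aged ECs (n = 3 each; log2 fold change -0.81 ± 0.19, adjusted p = 0.235). *Txnip* was lower as well (log2 fold change -0.54, adjusted p = 0.478).

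For comparison, 15 of 20 heat shock genes, which answer misfolding outside the ER, had a positive log2 fold change, with a median of 0.20. Most act in the cytosol, but *Hspd1* and *Hspe1* encode mitochondrial chaperones. *Hspa1a* and *Hspa1b* are also among the dissociation genes. The list's median was 0.30 among the high-*Rn45s* libraries and -0.036 between the low-*Rn45s* pair, and *Dnaja1*, a cochaperone of HSP70, was lower in every aged sample (log2 fold change -0.11). The difference between this list and the ER chaperones was not tested.

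**Figure D4:**
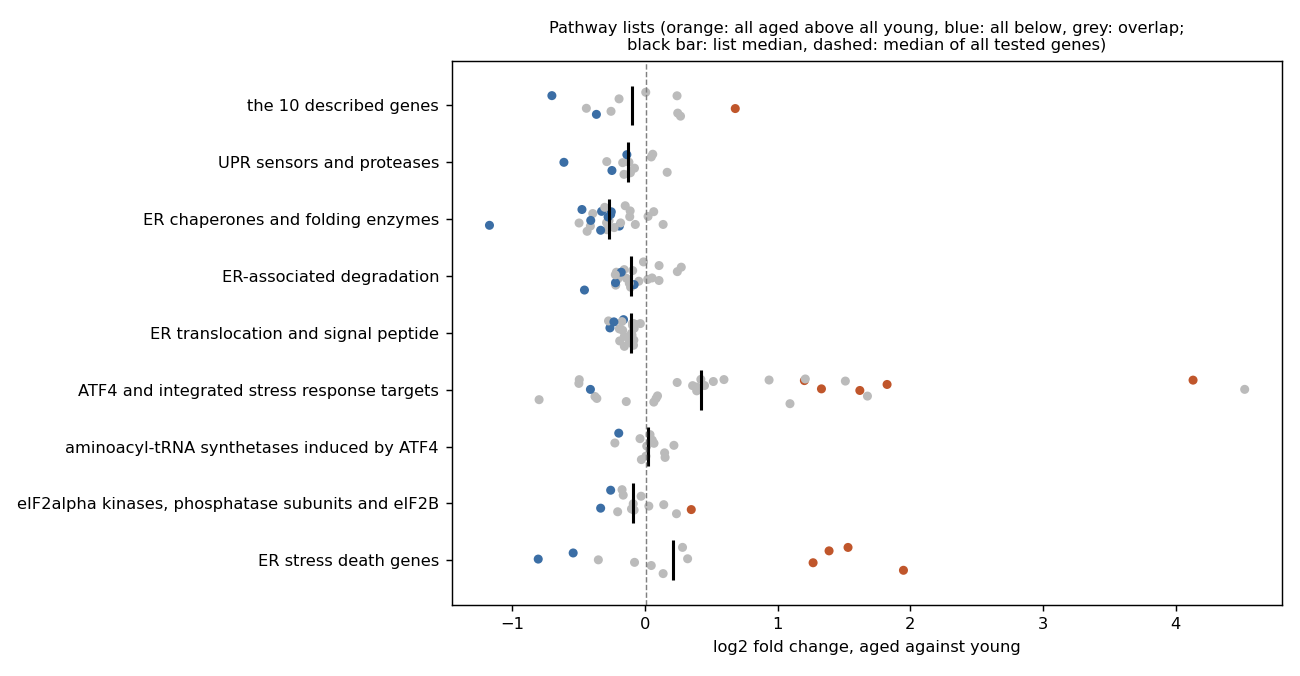
Log2 fold change (aged against young, edgeR) of each tested gene of the 10 described genes and the 8 pathway lists, with each list's median as a black bar and the median of all tested genes as a dashed line. Orange and blue points have every aged sample above or below every young sample. The median is -0.27 for ER chaperones and 0.42 for ATF4 targets, which spread from -0.80 to 4.52.

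**Figure D5:**
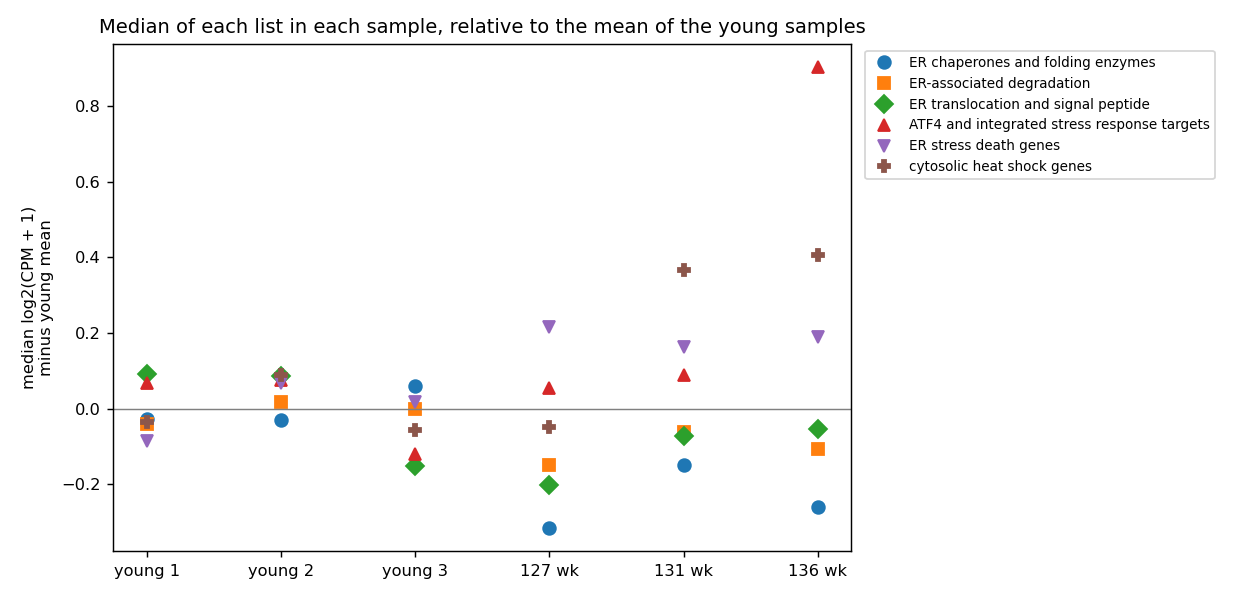
Median of 6 gene lists in each sample, as log2(CPM + 1) minus the mean of the young samples. ER chaperones lie at -0.32, -0.15 and -0.26 in the 127-, 131- and 136-week samples, and ATF4 targets stand out in the 136-week sample at 0.90.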

How the data were processed

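RNA of sorted CD31+CD45- liver ECs of 3 young and 3 aged mice was sequenced. The authors called bases with CASAVA 1.8.2, aligned single-end reads of 75 bases with TopHat2 2.1.0 against mm9, and deposited raw counts per gene symbol. The deposited FPKM values of 24346 symbols were made by the authors with Cuffnorm 2.2.1, which scales them between samples. The counting program, annotation and strand setting are not given in the sources used here.

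A CPM of 0.5 had to be reached in 1 sample or more, which 14612 genes did. After TMM normalization the ages were compared with edgeR 4.0.16 (glmQLFit and glmQLFTest, R 4.3.3), with Benjamini-Hochberg adjustment over all of them. Standard errors were derived from each log2 fold change and its F statistic. The fit was tested on simulated counts. DESeq2 1.42.0 and limma 3.58.1 served as alternatives, with other scalings, filters, single mice left out and a term for the library cluster. No 2 replicates were so alike as to be the same library (smallest chi-square per degree of freedom 20.2), and p-values measure the spread between 3 independent samples per age. The floor of 3 counts covers counting error only.

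Gene positions are from GENCODE vM1 on mm9. The genes and lists were chosen with earlier results of these data known. Named genes are the 10 genes, the 3 sensors and, per list, up to 2 genes per direction with the smallest p among those whose ages did not overlap. *Mars*, *Atf3* and the genes named for an ERSE were added after their values were seen. Promoters come from RefSeq's table for GRCm38.p6 and matched mm9 once each.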

Additional observations from a re-analysis of the deposited data

How the results depend on the processing

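No gene of the 10 passed the threshold under any alternative, and the sign of the log2 fold change of *Hsp90b1*, *Pdia4*, *Sdf2l1*, *Xbp1* and *Atf4* was kept in all 19. Those of the other 5 turned in some. *Hspa5* went to -0.00032 with DESeq2's size factors in edgeR and with DESeq2's Wald test, and ran from -0.17 to 0.35 with a mouse left out. In the samples with few *Lars2* and *Rn45s* counts alone, *Hspa5* was at -0.47, *Dnajb9* at -0.083, *Ddit3* at -0.10 and *Trib3* at -0.50, and in those with many *Herpud1* was at 0.042. The cause was not tested.

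Over all genes, the threshold was passed by 395 higher and 77 lower genes with DESeq2's Wald test, by 13 and 2 with limma-voom, by 3 and 1 without a filter, by 1 and 1 with a term for the library cluster and by 1 higher gene with limma on log2(FPKM + 0.1). It was passed by 0 to 1 higher gene with a mouse left out, and an unadjusted p with the same fold change gave 793 and 174. In the samples with many *Lars2* and *Rn45s* counts, every aged sample lay above the young ones for 3300 of 14269 genes (23.1%) and below for 3202 (22.4%). Of the 10 genes, 5 then lay above and 2 below. They numbered 1788 to 2698 and 1590 to 2325 with a mouse left out, when fewer samples have to be kept apart, with 1 to 3 of the 10 genes above and 2 to 4 below. With library totals alone, 805 genes (5.51%) lay below, 0 of the 10 among them. Of the 10, 2 lay above, next to 11.8% of all genes, and the median log2 fold change of all genes was 0.075. No analysis was paired, because the young and aged samples came from different mice and no label pairs them. The smallest p that exact permutation of 3 young and 3 aged samples allows is 0.1.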
